A study of Mus musculus with 4 samples.

Results

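The loss of Neil3 was examined at single CCGG sites of left ventricular DNA by comparing 2 Neil3-null samples with 2 wild-type samples, 1 pair from non-infarcted and 1 pair from infarcted tissue. All 4 samples of the series entered the comparison. Of 1110575 CCGG sites listed in any sample, 967498 were listed in all 4 on the autosomes, and the 876803 of these with a mean MspI signal of at least 10 were used. They filled 127436 bins of 10 kb with at least 3 sites each. A pair of intervals, chromosome 8 from 29 to 59 Mb (7286 sites) and chromosome 1 from 168 to 177 Mb (2695 sites), was kept apart from the other 866822 sites. These intervals had been picked because sites there were missing from the null samples in these same data, so what is said of listing inside them is a description.

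All mice were C57BL/6, 8 weeks old, and taken 3 days after myocardial infarction. The wild-type groups were non-infarcted and infarcted left ventricle, and the null groups were the same tissues from Neil3-/- mice, with 1 sample in each of the 4 groups. The labels do not say whether both tissues came from the same hearts, whether animals were pooled, or how the Neil3 allele was made. Whole tissue was used, so a shift in the mix of cell types and a shift within cells cannot be told apart.

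NEIL3 is a DNA glycosylase of the base excision repair pathway that removes oxidized bases, acts on single-stranded DNA and unhooks some interstrand crosslinks, and it is best known from dividing cells. 5-methylcytosine can be oxidized to 5-hydroxymethylcytosine by the TET enzymes, and later oxidation products are cut out by a related glycosylase, TDG, which is why glycosylases have been studied for effects on DNA methylation. HpaII cuts CCGG only when the site is unmodified, whereas MspI also cuts the methylated and hydroxymethylated site, and glucosylation by a beta-glucosyltransferase (BGT) protects the hydroxymethylated site from MspI.

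Each sample had 3 libraries. A higher log2 HpaII/MspI ratio was read as a less modified site. A lower log2 BGT/MspI ratio was read as more protection by glucosylation, the 5-hydroxymethylcytosine readout. MspI also cuts the unmodified site, so a numerator above MspI, as at B4galt4 and Col16a1 below, gives no share of modified DNA. At such sites the ratio only compares samples, and what its shift means is uncertain. Ratios were centred on the median of the sample, and "difference" below is null minus wild type within a tissue, on the log2 scale. The samples listed 1060295 to 1079784 sites, and the signal of a library summed to 34161800 to 43985400. The wild-type non-infarcted sample was an exception, with a standard deviation of log2 BGT/MspI over sites of 1.08 against 0.795 to 0.843 in the other samples. That of log2 HpaII/MspI was 1.49 against 1.40 to 1.45. Which of its libraries this came from was not tested. How many tags each value rests on is unknown.

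The few promoter sites that differed the same way in both tissues show what a measured site looks like in sequence, and they are printed beside promoter sites of the chromosome 1 interval that were missing from both null samples. The windows are 100 bases of RefSeq promoter sequence (GRCm38.p6, the assembly also called mm10), 5′ to 3′ on the strand of the gene. Capitals mark the CCGG site whose values are given, and further CCGG motifs in a window are left in lower case. CCGG was found in 17338 of 32851 promoter windows of that table (52.8%).
Rgsl1, chr1:153844169-153844268, minus strand: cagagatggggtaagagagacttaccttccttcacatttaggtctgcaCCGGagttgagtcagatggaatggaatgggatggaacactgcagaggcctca
Rap1b, chr10:117846124-117846223, minus strand: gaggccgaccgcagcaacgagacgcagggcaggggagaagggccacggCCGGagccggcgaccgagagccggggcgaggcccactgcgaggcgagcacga
B4galt4, chr16:38742009-38742108, plus strand: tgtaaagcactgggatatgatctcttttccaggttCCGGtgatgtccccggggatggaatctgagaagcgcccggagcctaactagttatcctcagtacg
Fcgr4, chr1:171018676-171018775, plus strand, in the chromosome 1 interval: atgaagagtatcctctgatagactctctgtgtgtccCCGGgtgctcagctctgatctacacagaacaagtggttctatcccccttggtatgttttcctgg
Alyref2, chr1:171503371-171503470, plus strand, site missing in null: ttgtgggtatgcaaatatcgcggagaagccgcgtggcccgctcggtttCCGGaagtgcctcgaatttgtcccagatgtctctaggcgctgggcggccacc
Rgs7, chr1:175492596-175492695, minus strand, site missing in null: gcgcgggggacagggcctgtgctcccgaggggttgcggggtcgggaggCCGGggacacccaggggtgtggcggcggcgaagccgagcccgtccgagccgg

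At the Rgsl1 site the wild-type HpaII signals were 3.10 (non-infarcted) and 3.53 (infarcted) and the null ones 10.6 and 13.3, with MspI signals of 91.0, 75.8, 92.8 and 92.0 in the same order. These wild-type HpaII signals lay below the 5th percentile of their own samples. Both null samples lay above both wild-type samples, and the ratio differed by 1.72 and 1.63, non-infarcted first. At the B4galt4 site, whose gene makes a galactosyltransferase, the HpaII signal was 124, 116, 104 and 106 while the MspI signal was 6.78, 6.80, 15.8 and 17.4. The differences of -1.51 and -1.49 there came with a higher MspI signal in both null samples. The Rap1b site, upstream of a small GTPase, differed by 1.37 and 1.86. Its HpaII signals were 53.5, 49.2, 61.0 and 85.5 and its MspI signals 9.85, 18.3, 4.28 and 8.74, lower in null within each tissue. The Fcgr4 site, upstream of an activating IgG receptor, differed by 1.40 and 1.11, with MspI signals of 107, 91.7, 41.8 and 44.2. None of these sites passed the limma test (adjusted p 0.829 to 0.841, Benjamini-Hochberg). The Alyref2 site had MspI signals of 14.0 and 11.6 in wild-type tissue and the Rgs7 site 9.36 and 7.17, and neither was listed in a null sample.

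Across all sites, log2 HpaII/MspI showed no single site that passed. The limma additive model of genotype and tissue, with Benjamini-Hochberg adjustment over 876803 sites, called 0 sites (0% called), and 50898 sites had an unadjusted p under 0.05 (5.8%). The model had 1 residual degree of freedom. The count of 0 depended on how weak signals were treated. With a mean MspI minimum of 20 it was 46 sites (38 higher in null and 8 lower), of which 25 lay in the chromosome 8 interval and 10 in the chromosome 1 interval. With a pseudocount of 5 it was 69 sites (52 higher and 17 lower), of which 38 and 15 lay in these intervals.

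A rule of size was therefore read beside the test. It asks for a difference of at least 1 in the same direction in both tissues. Sites that reach 1 in opposite directions give the level to read it against, since the tissue pairs share no library. Whether both tissues of a genotype share animals is unknown, so the rule may not cover the spread between animals. The rule was met by 1.46% of all sites in the same direction and by 1.31% in opposite directions. Outside the intervals these were 12275 sites (6494 higher and 5781 lower in null, 1.42%) against 11320 (1.31%). Pearson's r between the non-infarcted and the infarcted difference over these 866822 sites was 0.0187. So over these sites the differences in one tissue were almost unrelated to those in the other. Over all sites the rule gave 6817 higher and 6005 lower sites, but 6170 higher and 6603 lower after quantile normalization, and 11865 and 3275 when ratios were centred on the 11 sites with at least 10 CCGG sites within 500 bp.

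The picture was different in both intervals. On chromosome 8, 391 of 7286 sites (235 higher and 156 lower, 5.37%) met the rule in the same direction and 116 (1.59%) in opposite directions, with an r of 0.315. On chromosome 1 it was 156 of 2695 sites (88 higher and 68 lower, 5.79%) against 25 (0.928%), with an r of 0.379. The genotypes did not overlap at 39.6% and 42.3% of the sites of these intervals, against 32.5% of all sites. The standard deviation of the differences was also larger there, 0.824 and 0.871 on chromosome 8 and 0.804 and 0.844 on chromosome 1, against 0.648 and 0.694 elsewhere. No test was made between the intervals and the rest, because the intervals were chosen on these samples.

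**Figure D1:**
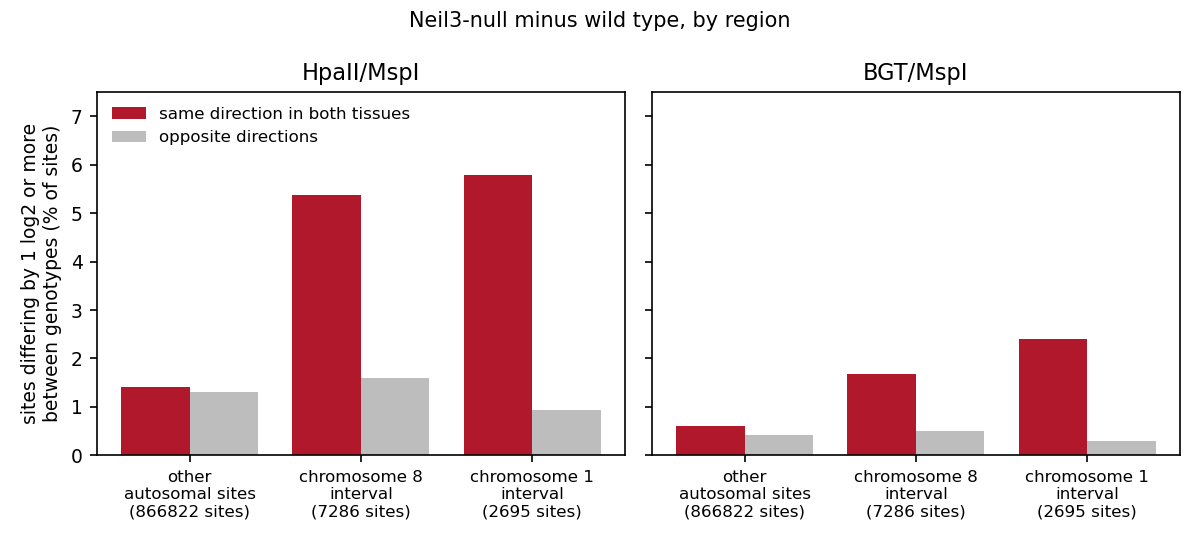
Percent of CCGG sites (y axis) that differ by at least 1 on the log2 scale between null and wild type, for HpaII/MspI (left) and BGT/MspI (right), in the 866822 other autosomal sites and in both intervals. Red bars count sites with the same direction in both tissues and grey bars sites with opposite directions. For HpaII/MspI the bars are nearly level elsewhere (1.42% and 1.31%) and far apart on chromosome 8 (5.37% and 1.59%) and chromosome 1 (5.79% and 0.928%).

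Outside the intervals, sites fixed by the naming rule included several where a near-floor HpaII signal in both samples of one genotype met a clear signal in the other. In Efhd2, which encodes an actin-binding calcium sensor, the site at chr4:141866177 had HpaII signals of 2.97 and 3.59 in wild-type and 86.5 and 104 in null tissue, with MspI signals of 29.3, 28.2, 46.4 and 40.2. Its differences of 4.18 and 4.34 (SE of the mean difference 0.395) were the largest of the naming rule's higher sites by the smaller of both values. Near Erc2, a gene of the presynaptic active zone, the site at chr14:27588893 had HpaII signals of 3.19 and 3.6 against 27.1 and 22.9, with MspI signals of 44.0, 45.4, 40.3 and 37.9. An ephrin receptor gene, Epha3, held a further one at chr16:63626589, with HpaII signals of 3.03 and 3.50 against 18.7 and 21.8. In the other direction, the Ubr3 site at chr2:69903717, in a ubiquitin ligase gene, had HpaII signals of 27.0 and 27.2 in wild-type and 4.48 and 4.22 in null tissue, with MspI signals between 17.8 and 21.7. Near Robo1, an axon guidance receptor gene, the HpaII signals at chr16:71895140 were 30.1 and 25.4 against 4.63 and 4.42. In each of these the samples of the 2 genotypes were far apart, and in none did the adjusted p of limma pass (0.418 to 0.829). Low signals were common among such sites: 1478 of the 6494 higher sites (22.8%) had an HpaII signal under 5 in both wild-type samples, and 1396 of the 5781 lower sites (24.1%) had one in both null samples.

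Other named sites differed in the MspI library more than in the HpaII library. At chr12:104645983, between genes and 41.8 kb from Dicer1, MspI read 8.94 and 5.17 in wild-type against 78.5 and 99.3 in null tissue, while HpaII was 16.9, 26.0, 10.7 and 10.5. In Dhcr7, which encodes the last enzyme of cholesterol synthesis, the site at chr7:143828271 had MspI signals of 3.06 and 1.80 against 39.6 and 54.6. In Dab1, an adaptor of reelin signalling, the site at chr4:104237294 had MspI signals of 121 and 94.2 in wild-type and 18.3 and 16.1 in null tissue, with HpaII higher in null (18.6, 9.43, 49.7 and 47.3). Of the 16 sites named outside the intervals, 8 had an MspI difference of at least 1 in both tissues opposite to the ratio, and 4 had MspI within 0.5 in both. Among all sites that met the size rule, MspI had moved by at least 0.5 against the ratio in both tissues at 736 of 12275 outside the intervals (6.00%), 139 of 391 on chromosome 8 (35.5%) and 68 of 156 on chromosome 1 (43.6%).

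**Figure D2:**
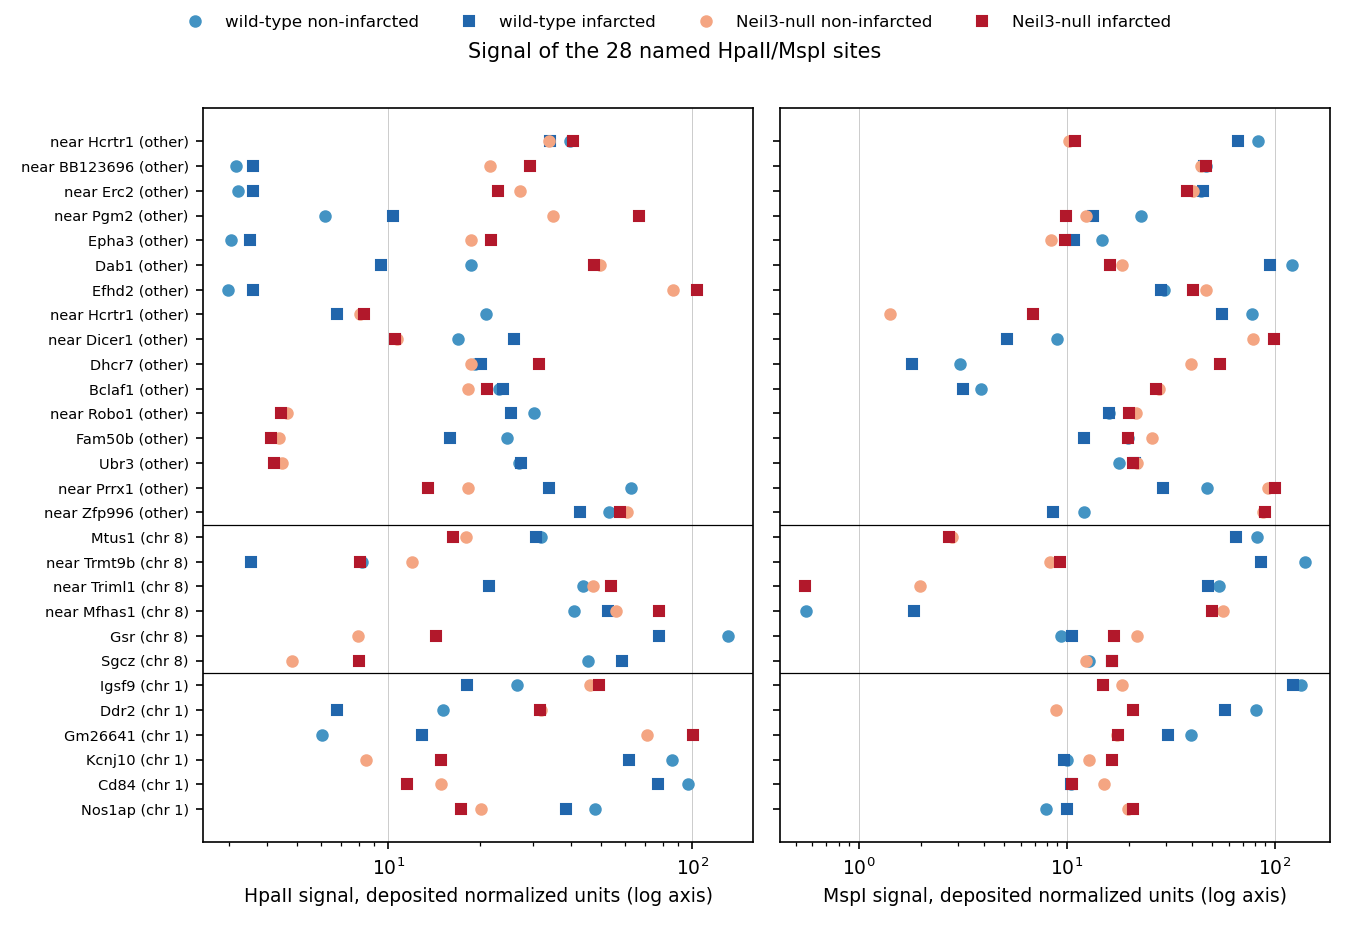
HpaII (left) and MspI (right) signal in deposited normalized units on log axes at the 28 sites named for HpaII/MspI, 1 row a site, with the nearest gene; circles are non-infarcted and squares infarcted samples, blue wild type and red null. At the Efhd2 row the genotypes separate in HpaII, whereas at the Dicer1 and Dhcr7 rows they separate in MspI.

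Inside the intervals the MspI signal itself differed between genotypes in the same way in both tissues. Pearson's r between the tissues' MspI differences was 0.571 over the chromosome 8 sites and 0.647 over the chromosome 1 sites, against 0.00405 elsewhere. In Mtus1, a gene of a microtubule-associated protein, the site at chr8:41037120 had MspI signals of 82.1 and 64.9 in wild-type and 2.80 and 2.71 in null tissue. Near Triml1 at chr8:43100211 MspI was 53.9 and 47.6 against 1.98 and 0.554, and near Mfhas1 at chr8:35684769 it was 0.561 and 1.84 against 56.0 and 49.8. At these sites 1 genotype was almost without MspI signal while HpaII was present in all 4 samples.

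Other interval sites differed in HpaII, some of these with MspI moved as well. Of the 6 sites named for HpaII/MspI in each interval, 1 had MspI within 0.5 in both tissues. MspI differed by at least 1 against the ratio in both tissues at 4 of 6 on chromosome 8 and 3 of 6 on chromosome 1. The zeta-sarcoglycan gene Sgcz, which belongs to a membrane complex of muscle, held a site at chr8:37779030 with HpaII signals of 45.2 and 58.9 in wild-type and 4.80 and 8.03 in null tissue, against MspI signals of 12.8, 16.5, 12.4 and 16.6. In the glutathione reductase gene Gsr, the site at chr8:33688543 had HpaII signals of 131 and 77.9 against 7.92 and 14.3. Its MspI signals were 9.36, 10.6, 21.6 and 16.8, higher in both null samples. On chromosome 1, Kcnj10, a potassium channel gene, had HpaII signals of 85.6 and 61.8 against 8.44 and 14.9 at chr1:172367860, and Cd84, a leukocyte receptor gene, 96.6 and 77.1 against 14.9 and 11.6 at chr1:171851832. All of these wild-type values lay above all null values. Without the 10096 sites whose MspI signal had moved by at least 0.5 in the same direction in both tissues (1.15% of sites), the chromosome 8 counts were 247 in the same and 113 in opposite directions with an r of 0.196, and the chromosome 1 counts 87 and 25 with an r of 0.247. The counts elsewhere were then 11518 and 11237, with an r of 0.00716.

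Wild-type sites were also missing altogether. Among sites that both wild-type samples listed, 1397 of 10031 on chromosome 8 (13.9%) and 588 of 3677 on chromosome 1 (16.0%) were listed in neither null sample, against 5569 of 996792 elsewhere (0.559%). The reverse was rare, 0.331%, 0.165% and 0.309%. Among sites with a mean wild-type MspI of at least 20 the shares missing from null were 11.9%, 13.6% and 0.291%. Sites that met the size rule lay a median of 5.39 kb from the nearest missing site on chromosome 8, against 12.5 kb for other sites there. On chromosome 1 the distances were 4.89 and 5.33 kb.

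The 1-Mb windows gave the outline of both intervals. From 29 to 44 Mb on chromosome 8 the share of missing sites was 14.7% or more in every window but the one starting at 32 Mb (5.64%), and r between tissues was 0.268 to 0.591 but for that window (0.174). From 44 to 51 Mb r was -0.0663 to 0.232, and the windows starting at 51 and 52 Mb had 19.3% and 23.9% missing sites and an r of 0.169 and 0.441. The window that holds Neil3, starting at 53 Mb, had 3.92% missing sites and an r of 0.0159. The windows from 54 to 59 Mb had 2.89% to 15.6% missing sites and an r of 0.0336 to 0.189. On chromosome 1 every window from 168 to 177 Mb had 10.5% to 28.8% missing sites. Over 2333 windows elsewhere the median share was 0.524%, the median r 0.0178, and 3 windows had an r over 0.3, against 16 of the 35 interval windows with enough sites. The largest share elsewhere was 7.22%, in the window starting at 60 Mb on chromosome 8, just past the interval.

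**Figure D3:**
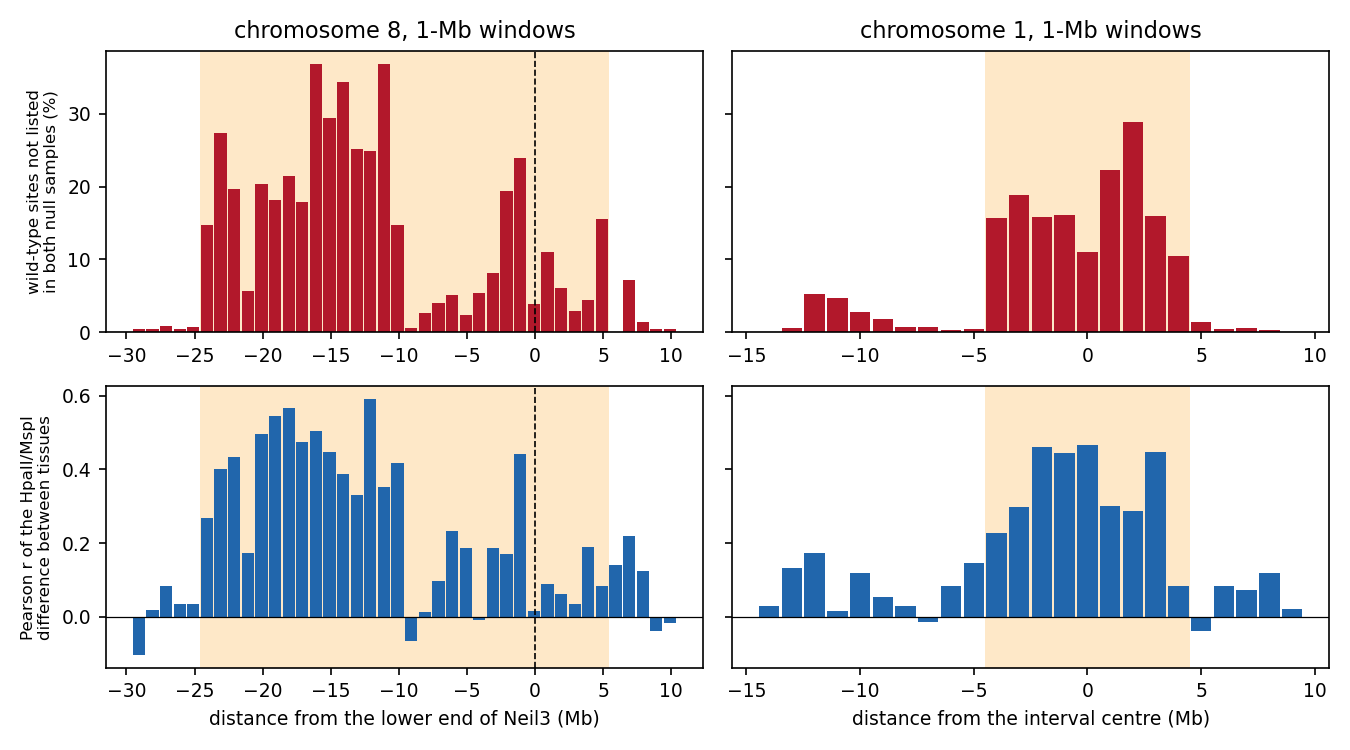
Percent of wild-type sites not listed in both null samples (top) and Pearson's r between tissues of the HpaII/MspI difference (bottom) in 1-Mb windows, against distance in Mb from the lower end of Neil3 on chromosome 8 (left, dashed line) and from the interval's centre on chromosome 1 (right); shading marks the intervals. Missing sites and high r share the left part of the chromosome 8 interval and the window just below Neil3 (23.9%, r of 0.441), while the window at Neil3 has 3.92% missing sites and an r of 0.0159.

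Neil3 itself spans chr8:53586867-53639065 and had 11 tested sites within the gene and 1 kb around it. Its summed log2 HpaII/MspI in wild type was -0.81 (non-infarcted) and -0.78 (infarcted), and in null -0.12 and -0.33. Both null values lay above both wild-type values, by 0.69 and 0.44 (SE of the mean difference 0.0812), and limma gave an adjusted p of 0.748. At 9 of the 11 sites the ratio was higher in null in both tissues. The site at 53605559 had HpaII signals of 10.8 and 17.3 in wild-type and 86.4 and 97.3 in null tissue at MspI signals of 94.4, 74.8, 109 and 98.0. The site at 53587715 had HpaII signals of 3.10 and 3.56 against 8.10 and 11.5, the wild-type ones below the 5th percentile of their samples. Only these 2 met the size rule, and the sites at 53621293 (differences of -0.62 and -0.67) and 53638851 (-0.03 and -0.06) lay on the other side of 0. The summed log2 BGT/MspI of Neil3 was -0.87, -0.55, -0.55 and -0.64 in the same order, so the genotypes overlapped. A further site in the gene, at 53608723, had MspI signals of 18.9 and 19.2 in wild-type tissue and was listed in neither null sample. No exon annotation was used here, so the sites cannot be placed in or out of the deleted part and do not check the genotype labels.

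**Figure D4:**
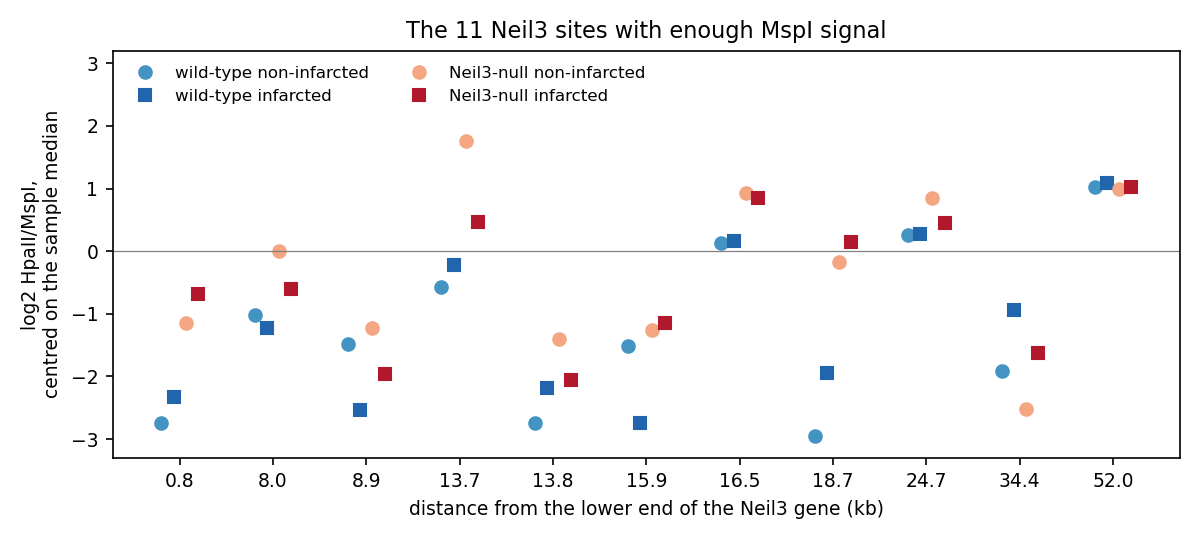
Centred log2 HpaII/MspI (y axis) of each of the 4 samples at the 11 tested Neil3 sites, ordered by distance in kb from the lower end of the gene; blue is wild type and red null, circles non-infarcted and squares infarcted. Null symbols lie above wild-type symbols of the same tissue at 9 sites, most clearly 18.7 kb in, where the differences are 2.77 and 2.09.

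The glucosylation readout gave calls at single sites. limma with Benjamini-Hochberg adjustment called 164 of 876803 sites for log2 BGT/MspI (0.0187%), 117 higher (0.0133%) and 47 lower in null (0.00536%), and 56540 had an unadjusted p under 0.05 (6.45%). Of these 128 lay outside the intervals (92 higher and 36 lower), 24 on chromosome 8 (18 and 6) and 12 on chromosome 1 (7 and 5). The absolute mean difference of called sites was 1.78 to 5.01, and 158 of these had the same sign in both tissues. The split of higher to lower calls was 205 to 227 when centred on the 11 densest sites. With no tissue term there were 0 calls. Fits with 1 sample left out also had no tissue term, and they shared only part of the 164 calls. The part of a single sample in the calls cannot be read from them.

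Among the called sites, the one in Col16a1, the gene of a fibril-associated collagen, at chr4:130064048 had BGT signals of 111 and 77.5 in wild-type and 12.6 and 13.6 in null tissue, at MspI signals of 30.4, 28.4, 24 and 21.9. The ratio fell, with differences of -2.82 and -2.14 (SE of the mean difference 0.376, limma adjusted p 0.000313). The site 20.6 kb from Wwtr1, which encodes the Hippo pathway coactivator TAZ, fell in ratio, with BGT signals of 11.5 and 18.2 against 4.24 and 3.22 at chr3:57596466 (adjusted p 0.000791, limma). In Fosl2, an AP-1 subunit gene, the site at chr5:32143330 had BGT signals of 21.6 and 10.9 against 6.77 and 5.89 (adjusted p 0.0181, limma). At Fosl2 the MspI signals were 11.6, 6.67, 15.3 and 12.8, higher in both null samples, and at Wwtr1 7.39, 10.4, 15.3 and 9.44. BGT was lower in both null samples at all 3 sites, and at Fosl2 a higher MspI also enters the ratio.

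Rises were called too, some of these at sites with a very low BGT signal in wild type. In Cntnap2, a neurexin family gene, the site at chr6:47172760 had BGT signals of 1.65 and 0.921 in wild-type and 8.05 and 14.9 in null tissue, at MspI signals of 12.8, 9.98, 13.2 and 15.7 (limma adjusted p 0.0043). In Synpo2, which encodes an actin-bundling protein of the Z-disc, BGT was 5.98 and 2.38 against 16.1 and 15.9 at chr3:123093493 (limma adjusted p 0.00909). At the called sites in Usp42, near Tesc and near Cks1brt, wild-type non-infarcted tissue stood apart in both libraries: the Usp42 site had BGT signals of 77.2, 4.04, 15.5 and 13 and MspI signals of 59.2, 14.0, 1.36 and 8.32. The part of that sample in these calls was not tested at the single site.

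In the intervals, the strongest called site was the one near Triml1 named above, with log2 BGT/MspI differences of 4.25 and 5.77 (limma adjusted p 6.45e-07). Its BGT signals were 39.8, 49.2, 28 and 31.4, beside the MspI signals of 53.9, 47.6, 1.98 and 0.554. In Ppp2cb, a catalytic subunit gene of protein phosphatase 2A, the ratio at chr8:33607192 fell, with differences of -2.37 and -3.62 (limma adjusted p 1.67e-05) with MspI at 16.8, 4.54, 100.4 and 120 and BGT at 21.0, 13.8, 24.4 and 29.7. At the Kcnj10 site both readouts were lower in null, and BGT/MspI fell, with differences of -2.29 and -2.06 (limma adjusted p 0.00315). In all, 39 of the 164 called sites also met the size rule for HpaII/MspI in the same direction (14 elsewhere, 18 on chromosome 8 and 7 on chromosome 1) and 0 in the opposite one. The readouts share the MspI library, and MspI differed by at least 1 against the ratio in both tissues at 23 of the 164 (4 elsewhere, 13 and 6).

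By the size rule, BGT/MspI differed at 5239 sites in the same direction (3185 higher and 2054 lower) and 3664 in opposite directions outside the intervals, against 0.619% and 0.423% of all sites. On chromosome 8 it was 122 sites (82 and 40) against 37, and on chromosome 1 65 (35 and 30) against 8. Pearson's r between tissues was 0.0438, 0.158 and 0.217. Over all sites the split was 3302 higher (0.377%) to 2124 lower (0.242%), but 2074 to 2242 after quantile normalization and 1864 to 4055 when centred on the 11 densest sites, so neither direction prevailed under each scaling. Without sites whose MspI had moved, the counts were 4796 against 3633, 61 against 35 and 39 against 8.

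Sums over 10-kb bins gave few calls. For log2 HpaII/MspI limma called 2 of 127436 bins (0.00157%), 1 higher and 1 lower (0.000785% each), and 7880 had an unadjusted p under 0.05 (6.18%). The bin at chr4:129830001-129840000, within Ptp4a2, a tyrosine phosphatase gene, had ratios of 0.32 and 0.05 in wild-type and 2.62 and 2.21 in null tissue (limma adjusted p 0.00767). Its MspI differences were -0.58 and -0.33, and it lies in a run of chromosome 4 sites described below. At its site chr4:129835487 MspI read 97.9 and 80.5 in wild-type against 1.82 and 7.99 in null tissue. The bin at chr8:37770001-37780000, within Sgcz and holding the site described above, had 1.06 and 1.29 against -0.92 and -0.68 (limma adjusted p 0.0134). Each held 3 sites, and neither was called with no tissue term. Neither was called without either wild-type sample, in fits that also had no tissue term. By the size rule (0.5 for bins), 659 bins elsewhere met it in the same direction and 512 in opposite directions, against 0.579% and 0.403% of all bins. In the intervals the counts were 56 against 2 on chromosome 8 (34 higher and 22 lower) and 23 against 0 on chromosome 1 (14 and 9), with r of 0.453 and 0.497, against 0.0383 elsewhere. Of the 738 bins that met it, 654 held 3 or 4 sites, as did 42.6% of all bins. Over all bins 405 were higher and 333 lower, but 816 and 153 when centred on sites with at least 5 CCGG sites within 500 bp, 528 and 237 with no centring, and 1989 and 59 when centred on the 11 densest sites.

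For BGT/MspI, limma called 72 bins (0.0565%), 39 higher (0.0306%) and 33 lower (0.0259%), of which 64 lay outside the intervals and 8 on chromosome 8, and 8766 had an unadjusted p under 0.05 (6.88%). The bin at chr11:13430001-13440000, between genes, had ratios of 0.52 and 0.59 in wild-type and -0.55 and -0.45 in null tissue (limma adjusted p 0.000455), beside MspI differences of 0.64 and 0.49. Both null values of that bin, which held 3 sites, lay below both wild-type values, and 67 of the 72 called bins held 3 or 4 sites. After quantile normalization and with no tissue term, 0 bins were called. Fits with 1 sample left out also had no tissue term, and they called few bins or none. The size rule was met by 656 bins in the same direction and 395 in opposite directions elsewhere, 17 and 3 on chromosome 8 and 6 and 0 on chromosome 1, against 0.533% and 0.312% of all bins. Over all bins this was 461 higher (0.362%) to 218 lower (0.171%), but 265 to 258 after quantile normalization and 162 to 689 when centred on the 11 densest sites. That last centring gave 20 higher and 37 lower called bins.

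On chromosome 4 the MspI signal was lower in null over a long stretch. A scan of 22732 windows of 100 kb with at least 10 sites found 7 windows where the median MspI difference was -0.5 or less in both tissues, 1 where it was 0.5 or more in both and 0 with opposite directions. All 7 lay in chr4:112000001-114100000, the cluster of Skint genes, which encode immunoglobulin-like membrane proteins of thymus and skin. Over the 262 sites of that block the median MspI difference was -0.62 and -0.59, 0.652 and 0.666 of the wild-type signal, and 219 sites were lower in both tissues. Unlike in the intervals, sites there were not missing: 3 of 391 wild-type sites were not listed in null. The median HpaII/MspI difference was 0.26 and 0.23, and that of BGT/MspI -0.01 and -0.06. The gene values were Skint6 0.34 and 0.40 (50 sites), with summed MspI at -0.67 and -0.68, and Skint5 0.14 and 0.26 (64 sites), with MspI at -0.49 and -0.48. Of the 6 other Skint genes measured, 4 were also higher in HpaII/MspI in both null samples. Skint9 was at 0.39 and -0.25 (7 sites, MspI -0.91 and -0.44) and Skint10 at 0.16 and -0.13 (10 sites, MspI -0.45 and -0.01). In 73 windows within 5 Mb outside the block the MspI differences ranged from -0.40 to 0.13.

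**Figure D5:**
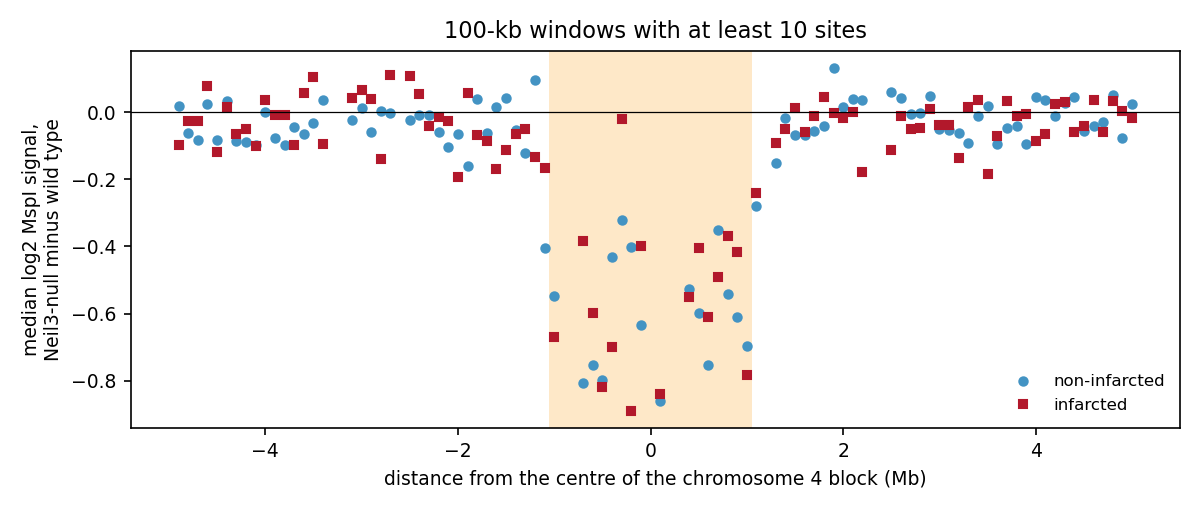
Median log2 MspI signal, null minus wild type, centred on the sample median, in 100-kb windows with at least 10 sites (y axis) against distance in Mb from the centre of the chromosome 4 block (shaded); circles are non-infarcted and squares infarcted pairs. Windows in the block lie below 0 in both tissues, with a median over sites of -0.62 and -0.59, and windows further out lie near 0 on both sides.

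The single window with higher MspI was chr1:171500001-171600000 in the chromosome 1 interval, at 0.90 and 1.0 over 32 sites, or 1.86 and 2.0 times the wild-type signal. It holds the intelectin gene Itln1 and the leukocyte receptor gene Cd244a. Among the genes named for HpaII/MspI they had the largest downward differences, with values of -0.09 and -0.42 in wild-type against -1.40 and -1.43 in null tissue for Itln1 and 0.82 and 0.77 against -0.16 and -0.12 for Cd244a, with median MspI differences of 1.19 and 1.28 and of 1.14 and 0.72. Neither passed limma (adjusted p 0.529 and 0.459), although 2 genes of this interval, both lower in null, were called with a mean MspI minimum of 20.

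A second stretch of chromosome 4 held a run of sites with a higher HpaII/MspI in null. Between chr4:129791239 and chr4:130345203, 25 of 519 sites met the size rule upward (4.82%), 3 downward and 1 in opposite directions, against 0.777% of all sites upward. The run was picked for this and is given as a description. It covers Ptp4a2, Spocd1, which acts in piRNA-directed DNA methylation in germ cells, Adgrb2, Col16a1, Pef1 and the orexin receptor gene Hcrtr1. Over the 25 sites the median ratio difference was 1.52 and 1.74 and the median MspI difference -2.82 and -2.75. At chr4:129901000 MspI read 131 and 83.4 in wild-type against 14.7 and 14.3 in null tissue, with HpaII at 53.3, 78.0, 93.0 and 82.0. At that site MspI was lower in both null samples and HpaII was not. At others HpaII was lower too, as at chr4:129998768, with HpaII at 71.1, 47.5, 1.83 and 15.3. The MspI signals there were 174, 96.6, 1.95 and 12.9. Of 584 wild-type sites of the run 2 were missing in null.

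Per gene, no HpaII/MspI or BGT/MspI value passed limma over 23563 genes (0% called for each). An unadjusted p under 0.05 was reached by 1499 genes (6.36%) and 1370 genes (5.81%). For HpaII/MspI 9 genes met the size rule of 0.5 (0.0382%), 7 higher (0.0297%) and 2 lower (0.00849%). Of these 5 lay outside the intervals, and 1 gene had opposite directions (0.00424%). Centred on the 11 densest sites, 38 were higher and 2 lower by that rule, and limma called 929 genes (926 higher and 3 lower). All 5 were higher in null, among them Prr30, at -1.11 and -1.03 in wild-type and -0.24 and -0.36 in null tissue over 5 sites, and Zfp345, at -0.79 and -1.15 against -0.10 and -0.58. Other genes picked by the naming rule outside the intervals missed 0.5 in at least 1 tissue. Of these, the mesothelial surface gene Msln was at -1.26 and -0.83 against -0.81 and -0.40. On the lower side were Tmem138 (0.26 and 0.33 against -0.30 and -0.09), which is needed for cilia, and Cox8a (0.15 and 0.17 against -0.19 and -0.37), a subunit of cytochrome c oxidase. Spocd1, with 34 sites, was at -0.07 and -0.04 against 0.29 and 0.33.

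In the intervals, HpaII/MspI differences per gene agreed more between tissues, with r of 0.501 over 168 genes on chromosome 8 and 0.554 over 107 on chromosome 1, against 0.0667 over 23288 elsewhere. Gsr was at -0.10 and 0.08 in wild-type and -0.42 and -0.40 in null tissue over 34 sites. Pdlim3, which encodes a LIM protein of the muscle Z-disc, was at -0.36 and -0.45 against -0.05 and -0.18 over 28 sites. Pex19, a peroxisome assembly gene on chromosome 1, was at 0.10 and -0.08 against 0.66 and 0.96. For BGT/MspI r over genes was -0.0936 on chromosome 8, 0.288 on chromosome 1 and -0.00844 elsewhere. All 11 genes that met the size rule (8 higher and 3 lower, 0.0467%) lay elsewhere, with 4 in opposite directions; centred on the 11 densest sites the split was 1 to 20. Tbpl2, a germ cell TATA-binding factor gene, was at -1.01 and -0.97 in wild-type and -0.31 and -0.33 in null tissue, and the Mediator subunit gene Med8 at 0.63 and 0.60 against 0.07 and 0.06 (limma adjusted p 0.388 and 0.354).

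No other gene of the pathway of NEIL3 stood out by the test, nor did Neil3. Of 24 base excision repair genes 22 were measured, 0 were called and 0 met the size rule for either readout. For HpaII/MspI 9 were higher in null in both tissues and 7 lower in both, where 25.6% and 26.6% of all genes were, and the median difference was -0.02 in non-infarcted and 0.04 in infarcted tissue, against 0.00 and -0.003 over all genes. After Neil3, the member furthest up was Polg, the mitochondrial DNA polymerase, at -0.33 and -0.50 in wild-type and -0.15 and -0.24 in null tissue. Fen1, the flap endonuclease of long-patch repair, was at 0.50 and 0.75 against 0.42 and 0.57, and Mbd4, a glycosylase that removes thymine and uracil from mispairs with guanine, at 0.56 and 0.78 against 0.53 and 0.57. For BGT/MspI, Neil2, a related glycosylase, was at 0.20 and 0.17 against 0.01 and 0.01, and Lig3, the ligase of the pathway's last step, at -0.38 and -0.20 against -0.10 and -0.10.

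Of 23 genes that write, read and remove cytosine modification 21 were measured, with 0 called. For BGT/MspI 5 were higher and 7 lower in null in both tissues. For HpaII/MspI 7 were higher and 3 lower, where 25.6% and 26.6% of all genes were, with medians of 0.02 and 0.05. Gadd45a, a stress-induced gene linked to demethylation, was at 1.36 and 1.27 in wild-type and 1.59 and 1.42 in null tissue, and Mbd2, a reader of methylated DNA, at 0.51 and 0.28 against 0.62 and 0.46. Tet2, a TET dioxygenase, was at -0.05 and -0.07 against -0.11 and -0.16 and Dnmt3l, a cofactor of de novo methylation, at -0.33 and -0.28 against -0.34 and -0.40. The direction of Tet2, Dnmt3l, Fen1, Mbd4, Nkx2-5 and Nppb turned when ratios were centred on the 11 densest sites, which moved the median gene by 0.14 and 0.22.

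Of 35 cardiomyocyte genes 32 were measured. For BGT/MspI 7 were higher and 7 lower in null in both tissues. For HpaII/MspI 13 were higher and 6 lower, where 25.6% and 26.6% of all genes were, with medians of -0.01 and 0.08. Hspb7, a small heat shock protein of heart muscle, was at 0.57 and 0.48 in wild-type and 0.92 and 0.79 in null tissue over 11 sites. The cardiac transcription factor gene Nkx2-5 was at 0.42 and 0.58 against 0.28 and 0.38, and Nppb, the gene of B-type natriuretic peptide, at 1.29 and 1.75 against 1.22 and 1.49. None was called. The medians of the lists of other cell types of the tissue lay in the same range for HpaII/MspI: fibroblast and matrix genes -0.005 and -0.004, leukocyte genes 0.009 and -0.004, endothelial genes -0.02 and 0.05, and smooth muscle and pericyte genes -0.01 and 0.02. Proliferation genes were at -0.01 and -0.05, imprinted genes at -0.01 and 0.01 and germline genes at -0.04 and 0.09. In the 10 lists 0 members were called for either readout. DNA and not RNA was measured, so the labelled tissue was not checked against marker expression.

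How many sites met the size rule for HpaII/MspI went with how isolated they were. Outside the intervals, isolated sites, with no other CCGG site within 500 bp, met it at 1.66% in the same and 1.54% in opposite directions, and sites with 5 to 9 CCGG sites in that span at 0.541% and 0.446%. Promoter windows were nearly free of such sites: of 12243 sites, 18 were higher, 20 lower and 29 in opposite directions. In the intervals, 4 of 105 promoter sites met the rule and 0 did so in opposite directions. Sites inside genes (1.37% and 1.27%) and between genes (1.52% and 1.40%) were close to each other. For BGT/MspI the balance went with signal: among the 102610 sites elsewhere with an MspI signal over 80, 202 were higher, 7 lower and 66 in opposite directions, and among the 191855 sites with 10 to 20, 943 were higher, 1385 lower and 2069 in opposite directions. The median difference of these classes moved mainly in the non-infarcted pair. Over 80 it reached 0.164 there, beside 0.00208 in the infarcted pair. For sites with 10 to 20 the medians were -0.214 and -0.000827. By sample, wild-type non-infarcted tissue had the outermost median ratio: -0.712 over 80, with the other samples from -0.543 to -0.478. With 10 to 20 its median ratio of 0.694 compared with 0.442 to 0.490. That sample, whose BGT/MspI spread stood apart, enters the counts of both classes, and its part in the counts was not tested.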

How the data were processed

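Genomic DNA of 4 left ventricle samples was made into 3 libraries each, cut with HpaII, with MspI, or with MspI after glucosylation, per the labels' protocols. For each CCGG site the authors deposited 1 normalized signal per library, made from sequence tags. How they normalized it is not stated in the labels or files, and the genome build is mm10, per the submitters' processing notes. Sites were listed 1 base below the RefSeq position of the motif (16425 of 44844 promoter CCGG), so positions were raised by 1.

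Log2 HpaII/MspI and log2 BGT/MspI were computed per site, or from sums over 10-kb bins (at least 3 sites) and RefSeq genes with 1 kb on each side (at least 5 sites), with a mean MspI of at least 10, and centred on the sample median. limma 3.58.1 (R 4.3.3; further steps used Python 3.11.15, numpy 2.4.6, pandas 2.3.3) fitted genotype and tissue with an intensity trend to all sites, bins or genes, leaving 1 residual degree of freedom. The Benjamini-Hochberg adjusted p had to be under 0.05. Simulated data with normal noise were used to check that set differences were recovered, and no rate of false calls is given here. With 1 sample per group, p-values rest on pooling the spread over features. Whether they cover the spread between animals is unknown, since both tissues of a genotype may share animals. The size rule asks for a difference of 1 (sites) or 0.5 (bins, genes) in the same direction in both tissues. MspI differences were centred on the sample median over the sites used.

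Sites were named as the 8 in each direction outside the intervals, and 3 in each direction in each interval, with the largest smaller-of-both differences, among called sites or, with under 10 called, among those past the size rule. Bins (5 in each direction) and genes (10, and up to 5 in each interval, predicted names left out) followed the same ranking, and each gene list gave its 2 outermost members in each direction. Neil3 was always named. Other sites and stretches in the text, such as the promoter sites and the chromosome 4 stretches, were chosen after their values were seen. The comparison, the intervals and the 10 gene lists (278 genes, 247 measured) were chosen with earlier results of these data known. Alternatives changed the centring, signal minimum, pseudocount, trend, tissue term, bin size and libraries included. Sex chromosomes entered no test. Only some of the bins, sites and genes that the naming rule picks are described, and the others are not reported here.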

Additional observations from a re-analysis of the deposited data

Results flagged for a closer look

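Some differences between null and wild type had opposite signs in the 2 tissues. Whether the tissues differed was not tested, since each difference rests on 1 sample per genotype. For HpaII/MspI the median of base excision repair genes was -0.0216 in non-infarcted and 0.0350 in infarcted tissue, and that of cardiomyocyte genes -0.00588 and 0.0788. For BGT/MspI the base excision repair median was -0.0373 and 0.0212. The HpaII/MspI difference of Cox6a2, a muscle subunit gene of cytochrome c oxidase, was -0.0250 and 0.52, and the BGT/MspI difference of Neil3 was 0.33 and -0.0848.

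Outside the autosomes used above, 376 sites of chromosome Y were listed in both null samples and in neither wild-type sample.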

How the results depend on the processing

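No paired analysis was possible because the replicate number is 1 in every group and cannot serve as a block. The samples are paired by tissue instead, through the tissue term of the reported fit. Fits with 1 sample left out had no tissue term, so they differ from the reported fit in both ways. Counts of called CCGG sites for HpaII/MspI, 0 as reported, were 46 with a mean MspI minimum of 20 and 69 with a pseudocount of 5, and past the size rule 7826, 2603 and, for a difference of 2, 312. For BGT/MspI the 164 calls were 432 centred on the 11 densest sites, 66 with the pseudocount, 0 with no tissue term, 94 when fitted without the intervals, 296 with a numerator signal of at least 10, 581 centred on sites with at least 5 CCGG sites within 500 bp (below, 5 neighbours), and 28 to 7242 with 1 sample left out; the size rule gave 2885 with the minimum of 20, 8918 with no minimum, 969 with the pseudocount and 40 for a difference of 2. The 2 HpaII/MspI bins were 4 with no centring, 5 (densest sites), 4 (quantile), 7 (minimum of 20), 1 (no minimum), 6 (pseudocount), 0 with no trend, 0 with no tissue term, 1 without the intervals, 18 at 5 kb, 0 at 50 kb, 15 with at least 5 sites a bin, 6 (5 neighbours) and 0 to 2 with 1 sample left out; by size they were 2048 (densest sites), 430 (minimum of 20), 71 (50 kb) and 87 (5 sites). The 72 BGT/MspI bins were 7 with no centring, 0 (quantile), 20 (minimum of 20), 27 (no minimum), 16 (no trend), 0 (no tissue term), 37 (5 kb), 13 (5 sites), 7 (5 neighbours) and 0 to 3 with 1 sample left out; by size they were 446 (minimum of 20), 37 (50 kb) and 90 (5 sites).

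Genes called for HpaII/MspI were 5 with no centring, 929 (densest sites) and 2 (minimum of 20), and by size 40 (densest sites), 5 (without the intervals) and 14 (5 neighbours). For BGT/MspI 0 to 3 genes were called with 1 sample left out, and by size there were 21 (densest sites), 5 (quantile) and 5 (minimum of 20). With a minimum of 20 the share of sites missing in null elsewhere was 0.291%. Of 2730 comparisons for 172 named features, 2410 kept direction and side of the threshold, 244 lost the call, 61 gained one and 15 changed sign. Centred on the densest sites, the HpaII/MspI differences were Dnmt3l 0.11, Nkx2-5 0.01, Fen1 0.06, Tet2 0.11, Nppb 0.02, Mbd4 0.06 and Rnf122 0.05, and BGT/MspI of Neil3 -0.01. Zfp42 was -0.01 with the minimum of 20, Dnmt3l and Tet2 0.00 with 5 neighbours, Nppb 0.07 and Cox6a2 -0.15 without the wild-type infarcted sample (-0.39 and 0.64 without the wild-type non-infarcted one), BGT/MspI of Neil3 -0.04 without wild-type non-infarcted (0.28 without wild-type infarcted), and Adam34l BGT/MspI -0.15 over the gene span alone. Centring on sites with at least 5 CCGG sites within 500 bp, the listing share at a minimum of 20, the 50-kb MspI windows and the counts without MspI-moved sites were added after seeing the data. The causes were not tested.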

Other observations

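On chromosome Y, 979 and 938 sites were listed in the wild-type samples and 1389 and 1393 in the null samples, non-infarcted first. Against the 376 sites found only in null stood 11 found only in wild type. Between 5 and 55 Mb the listed sites numbered 214 and 198 in wild type and 649 and 641 in null, and 365 were found only in null and 0 only in wild type. On chromosome X 413 sites were listed in both null samples only and 681 in both wild-type samples only.

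By chromosome, the ratio of HpaII/MspI sites past the size rule in the same direction to those in opposite directions, outside the intervals, was 0.992 to 1.21, and r between tissues 0.00584 to 0.0348, with the highest r on chromosome 4.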
